A study of Mus musculus with 36 samples.

Results

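The data described here are the response of the mouse suprachiasmatic nucleus (SCN), the hypothalamic pacemaker of daily rhythms, to a light pulse in the early night (ZT 15, written CT15 in the labels) while U0126, an inhibitor of the kinases MEK1 and MEK2, was present. They were chosen by sample group and comprise the 3 U0126-Light arrays set against the 3 U0126-Sham arrays, 6 of the 36 arrays of the series. C57BL/6J mice of 8 to 14 weeks were kept in constant darkness, infused into a lateral ventricle with 10 mM U0126, and given 100 lux of light for 10 min (U0126-Light) or mock stimulation (U0126-Sham). The matching vehicle groups, DMSO-Sham and DMSO-Light, received the solvent alone, and all 4 groups shared the surgery, the infusion, the darkness and the time of day. The tissue was taken 50 min after the pulse by the design text of the series, and 60 min by the sample labels. Each array held RNA pooled from the SCN of 2 mice, so the spread between arrays is a spread between pools. An infusion into the ventricle reaches brain tissue beyond the SCN, and the drug acts in every cell type there.

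Light reaches the SCN through retinal axons that release glutamate and PACAP. Calcium entry then activates several kinases, among them the ERK cascade, in which Ras and Raf activate MEK and MEK phosphorylates ERK. ERK and its downstream kinases phosphorylate CREB and ternary complex factors, and genes such as Per1, Per2 and Fos are transcribed within the hour. Per1 and Per2 encode repressors of the circadian clock, and their induction at night precedes a shift of the rhythm. CREB can also be phosphorylated by calmodulin-dependent kinases and by protein kinase A, and the ERK cascade induces its own inhibitors, the dual-specificity phosphatases (Dusp) and the Sprouty proteins (Spry). The comparison therefore asks what is left of the light response when MEK is inhibited.

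Levels are log2 intensities as deposited, and changes are log2 fold changes, light minus sham, with the standard error (SE) from limma. Of 65956 probe sets that are not controls, 30638 carry 1 gene symbol, and taking the brightest for each symbol left 30176 genes. The threshold for passing was an adjusted p (Benjamini-Hochberg) no higher than 0.1 together with more than a 1.3-fold difference, up or down. The array medians lay between 4.51 and 4.66, and each array correlated with the others at 0.986 or more on average. Precision is set by having 3 arrays a group, and the median SE over genes was 0.09. The SCN peptides were high in all 6 arrays: the level of Vip, the peptide of the retinorecipient core, was 8.94 to 10.07, and that of Avp, the peptide of the shell, was 9.13 to 10.21. Xist, expressed from the inactive X chromosome, read 9.87 to 10.52 in 4 of the 6 arrays and 3.48 and 3.79 in the other two, so the pools differed in sex, and both U0126 groups held 1 array without it. The Y-linked gene Uty was low in U0126-Sham replicate 1 alone (3.53), at 6.03 and 7.22 in the other sham arrays and at 6.21, 7.26 and 6.43 in U0126-Light. The 4 sex-linked genes measured had a median difference of 0.87, so sex was not balanced between the groups, and its part in the results was not tested beyond a fit with Xist and Y-linked covariates, in which no gene passed under U0126.

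Sequences are shown for the miRNA pair of the CREB target list, whose 3′ arms share a seed, and for the promoters of 4 genes, Per1 and Nr4a2, whose mean read higher with light under U0126 by 0.26 and 0.43, and Dnajb5 and Rora, for which it differed by 0.05 and 0.03. The sequences are RefSeq entries of build GRCm38.p6. The 3′ arms of miR-212 and miR-132, transcribed from neighbouring hairpins on chromosome 11, are written with the seed (bases 2 to 8) in capitals:
miR-212-3p (chr11:75173443-75173464, plus strand): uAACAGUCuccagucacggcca
miR-132-3p (chr11:75173723-75173744, plus strand): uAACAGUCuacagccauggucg
Both carry the seed AACAGUC. The array reads the genes Mir212 and Mir132 and does not separate their arms.

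The promoter windows run from 250 bases before to 50 bases after the start site, and capitals mark TGACG (the core of the cAMP response element TGACGTCA and contained in it, searched on both strands, so also seen as CGTCA) and CACGTG (the E-box bound by CLOCK and BMAL1):
Per1, first start (chr11:69098699-69098998, plus strand): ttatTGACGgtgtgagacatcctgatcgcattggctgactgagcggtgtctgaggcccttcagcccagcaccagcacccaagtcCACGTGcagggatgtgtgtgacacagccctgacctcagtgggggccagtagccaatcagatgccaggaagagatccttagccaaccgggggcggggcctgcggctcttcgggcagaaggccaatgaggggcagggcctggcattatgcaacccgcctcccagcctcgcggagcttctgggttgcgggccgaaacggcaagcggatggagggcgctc
Per1, second start (chr11:69099902-69100201, plus strand): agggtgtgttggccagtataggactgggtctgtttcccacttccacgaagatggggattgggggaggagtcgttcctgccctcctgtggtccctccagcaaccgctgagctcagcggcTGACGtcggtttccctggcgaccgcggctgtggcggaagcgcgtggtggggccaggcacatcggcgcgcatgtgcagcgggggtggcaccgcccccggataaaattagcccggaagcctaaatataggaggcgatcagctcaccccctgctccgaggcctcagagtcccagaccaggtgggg
Nr4a2 (chr2:57123954-57124253, minus strand): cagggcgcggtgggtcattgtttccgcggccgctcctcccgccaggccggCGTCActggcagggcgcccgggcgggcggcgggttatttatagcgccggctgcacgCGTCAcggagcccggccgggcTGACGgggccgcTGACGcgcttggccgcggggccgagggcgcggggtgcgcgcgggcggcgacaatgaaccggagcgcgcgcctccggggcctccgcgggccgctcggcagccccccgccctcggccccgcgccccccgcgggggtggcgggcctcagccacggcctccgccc
Dnajb5 (chr4:42950146-42950445, plus strand): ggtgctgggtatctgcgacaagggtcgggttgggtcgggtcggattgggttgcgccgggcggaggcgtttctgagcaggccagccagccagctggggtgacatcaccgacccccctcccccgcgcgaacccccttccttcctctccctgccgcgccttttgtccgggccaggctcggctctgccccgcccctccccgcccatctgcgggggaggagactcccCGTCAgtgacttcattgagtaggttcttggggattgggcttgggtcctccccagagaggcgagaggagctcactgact
Rora (chr9:68653536-68653835, plus strand): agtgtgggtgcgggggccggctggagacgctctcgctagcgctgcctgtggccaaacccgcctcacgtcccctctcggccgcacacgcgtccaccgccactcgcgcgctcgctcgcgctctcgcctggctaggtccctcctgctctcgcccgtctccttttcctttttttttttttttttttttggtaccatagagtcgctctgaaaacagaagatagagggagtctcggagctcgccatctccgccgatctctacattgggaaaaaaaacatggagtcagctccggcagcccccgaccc
The first Per1 window held TGACG at -246 and CACGTG at -166, and the second held TGACG at -132, counted from the start site. The Nr4a2 window held 4 matches to TGACG, the Dnajb5 window, 1 of the 3 listed for that gene, held 1, and the Rora window held neither motif. Of 32851 promoter windows of all genes, 20.8% held TGACG and 7.15% held CACGTG. Of the 18 windows listed for 13 of the 22 genes that rose with light in vehicle, 8 held TGACG and 4 held CACGTG. Windows of 1 gene can overlap and hold the same site, as for Dnajb5. By gene, 6 of the 13 held TGACG and 4 held CACGTG, against 6228 and 2187 of all 27025 genes. A match is a run of letters and not evidence of binding.

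No gene passed in U0126-Light against U0126-Sham. Of the 30176 genes, 0 (0%) passed in either direction by limma, the smallest adjusted p was 0.575, and 1423 genes had an unadjusted p under 0.05 (4.72%). Those 1423 genes were 653 that read higher with light (2.16%) and 770 that read lower (2.55%). All 3 light arrays lay above all 3 sham arrays for 5.33% of genes and below them for 4.71%. In vehicle at the same time of day the same fit called 22 genes that rose (0.0729%) and 5 that fell (0.0166%). The vehicle total of 27 was 7 with only the arrays of ZT 15 and 45 with array weights. Only Ndn passed when the fit was restricted to the 12 arrays of ZT 15, and it is described below. Without U0126-Sham replicate 1, 2 small RNA genes passed, Gm22767 (-0.97), chosen after its values were seen, and Snora69 (-1.26), a guide RNA for pseudouridylation, both lower with light. The paper, from its own fit, reports genes that light regulated at ZT 15 after MAPK suppression. The reason for the different outcome was not tested.

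Per1 and Per2 had the smallest unadjusted p-values among the clock genes, and both read higher with light. Per1 read 7.25, 7.35 and 7.42 in U0126-Sham and 7.63, 7.59 and 7.59 in U0126-Light. The light arrays were all higher, by 0.26 (SE 0.09, 95% interval 0.08 to 0.44), with an unadjusted p of 0.00544 and an adjusted p of 0.936. In vehicle the difference for Per1 was 0.37, from 7.33, 7.36 and 7.51 to 7.67, 7.91 and 7.73, and it missed the threshold there too (adjusted p 0.151). The test of the difference between the Per1 responses gave -0.11 (interval -0.36 to 0.14, adjusted p 0.978), so neither an equal nor a reduced response can be read from it.

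Per2 read 6.97, 7.03 and 6.99 in U0126-Sham and 7.20, 7.14 and 7.21 in U0126-Light, again without overlap. The difference was 0.18 (SE 0.06, interval 0.06 to 0.30, unadjusted p 0.00383, adjusted p 0.936). In vehicle Per2 rose by 0.59 (adjusted p 3.92e-06), from 7.33, 7.22 and 7.27 to 7.75, 7.97 and 7.89. The Per2 arrays of U0126-Light thus lay below every array of DMSO-Sham. Its response under U0126 was smaller by 0.41 (interval -0.58 to -0.24), with an unadjusted p of 2.73e-05 and an adjusted p of 0.3. That difference passed with arrays weighted by quality (-0.44, adjusted p 0.0984), and without DMSO-Light replicate 1 (-0.47, adjusted p 0.0697). Many genes passed without DMSO-Sham replicate 1, and whether Per2 was among them is not given here.

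Of 27 clock genes listed, 24 were measured, 20 of them with a positive difference under U0126, and their median was 0.05 against 0.01 over all genes (0.08 in vehicle). No member passed. Those with an unadjusted p under 0.05 numbered 4, all higher with light, against 2.16% of all genes in that direction. A positive difference was found for 53.2% of all genes. Cry2, a repressor that pairs with the Per proteins, was 7.26, 7.30 and 7.26 in U0126-Sham and 7.42, 7.52 and 7.32 in U0126-Light, a difference of 0.15 (SE 0.06), against 0.02 in vehicle. Rora, the nuclear receptor that activates transcription of the clock gene Arntl, was 8.57, 8.43 and 8.18 in U0126-Sham and 8.22, 8.46 and 8.60 in U0126-Light. These Rora groups overlapped and differed by 0.03 (interval -0.22 to 0.29). In vehicle Rora rose by 0.79 (adjusted p 0.00419), with no overlap between 8.43 to 8.60 in sham and 9.19 to 9.39 in light, as was the case in that direction for 6.63% of all genes in vehicle. The test of the difference between the Rora responses gave -0.76 (interval -1.12 to -0.39), with an adjusted p of 0.371.

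**Figure D1:**
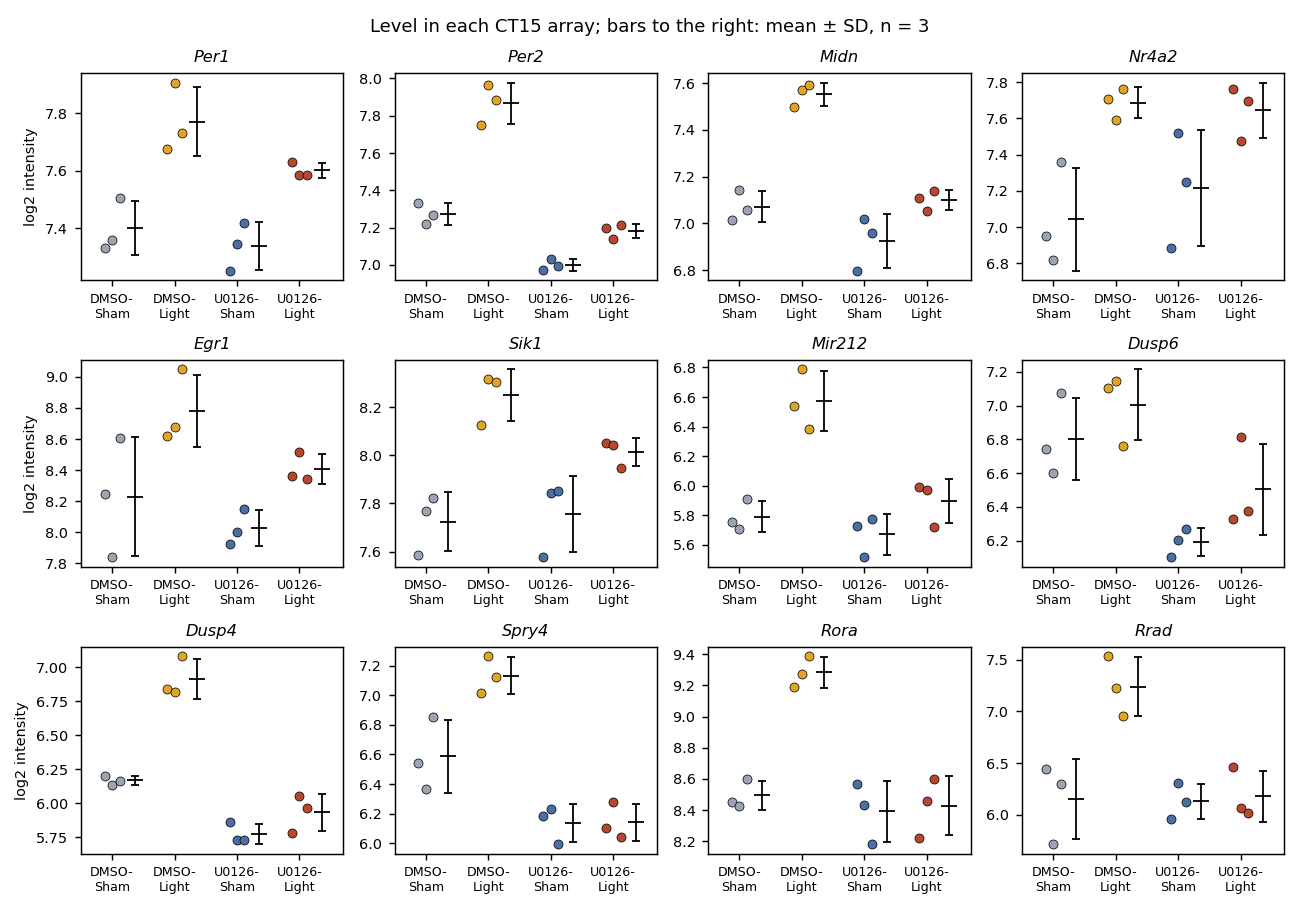
Log2 intensity of 12 genes in each of the 12 arrays of ZT 15 (CT15), by group; each point is 1 array, and the dash and bar beside the points are the mean ± SD of 3 arrays. Per1, Per2 and Midn arrays of U0126-Light lie above those of U0126-Sham, whereas Rora, Rrad and Spry4 arrays overlap under U0126 and separate in vehicle.

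Immediate early genes, which are transcribed without new protein synthesis, were mixed. Of 35 listed, 34 were measured, 22 with a positive difference, with a median of 0.10 (0.24 in vehicle). The orphan nuclear receptor gene Nr4a2 was 6.88, 7.52 and 7.25 in U0126-Sham and 7.76, 7.47 and 7.70 in U0126-Light. The groups overlapped by 1 array and differed by 0.43 (SE 0.14, interval 0.15 to 0.71, unadjusted p 0.00415, adjusted p 0.936), against 0.64 in vehicle (adjusted p 0.065). Its relative Nr4a1, named after its values were seen, was 8.44, 8.69 and 9.11 in U0126-Sham and 9.30, 9.36 and 9.39 in U0126-Light, a difference of 0.61 (SE 0.30), the highest in the list.

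Egr1, a zinc finger transcription factor, was 7.92, 8.00 and 8.15 in U0126-Sham and 8.36, 8.52 and 8.34 in U0126-Light. The groups did not overlap, and the difference was 0.38 (SE 0.20, interval -0.02 to 0.79, adjusted p 1), against 0.55 in vehicle. Fos, a subunit of the AP-1 complex, gave no usable comparison at this precision. Its sham arrays ranged from 7.67 to 8.83 and its light arrays from 8.70 to 8.90, for a difference of 0.53 with an interval of -0.50 to 1.56. Fosl2, another AP-1 subunit, rose by 0.72 in vehicle and differed by 0.10 (SE 0.14) under U0126, where its groups overlapped. Plk2, a kinase gene of the same list that rose by 0.58 in vehicle, differed by 0.25 (interval -0.00 to 0.50). Fosl2 and Plk2 were named after their values were seen. Ptgs2, which encodes cyclooxygenase 2, read lower with light (-1.31, SE 0.55), from 6.60, 8.05 and 7.75 in U0126-Sham to 6.60, 6.29 and 5.58 in U0126-Light, and the 2 higher sham arrays are those in which cytokine genes were high, as given below.

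CREB target genes mostly had positive differences. Of 29 listed, 26 were measured, 23 of them with a positive difference, while 53.2% of all genes had one, and the median was 0.11 (0.23 in vehicle). No CREB target passed. An unadjusted p under 0.05 was found for 4, Nr4a2, Per1, Sik1 and Vgf, all higher with light, against 2.16% of all genes. Sik1, a kinase that restrains CREB coactivators after light, read 7.58, 7.84 and 7.85 in U0126-Sham and 8.05, 8.04 and 7.95 in U0126-Light, a difference of 0.26 (SE 0.12) against 0.52 in vehicle. Vgf, the precursor of several secreted peptides, read 5.90, 6.08 and 6.01 and then 6.28, 6.21 and 6.11, a difference of 0.21 (SE 0.08) against -0.01 in vehicle. Neither gene's groups overlapped under U0126. The immediate early and CREB lists share members, so their medians are not separate results. Per1 also counts among the 4 in both the CREB and the clock lists.

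Mir212, on chromosome 11 at 75173388 to 75173478, was 5.73, 5.52 and 5.77 in U0126-Sham and 5.99, 5.97 and 5.72 in U0126-Light. The groups overlapped and differed by 0.22 (SE 0.13, interval -0.04 to 0.48). In vehicle Mir212 rose by 0.78 (adjusted p 0.00518), from 5.71 to 5.91 in sham to 6.39 to 6.79 in light, and the difference of the responses was -0.56 (interval -0.92 to -0.19, adjusted p 0.516). Mir132, the neighbouring hairpin with the same seed in its 3′ arm, read 3.13 to 3.51 in the 6 arrays with U0126, below the array medians and not shown to be above background, and differed by -0.08 (SE 0.16). It was named after its values were seen.

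The ERK feedback and target genes had a median of 0.00 (25 measured of 26 listed, 14 positive, 11 negative). Dusp6, the cytosolic phosphatase of ERK, was 6.10, 6.20 and 6.27 in U0126-Sham and 6.33, 6.81 and 6.37 in U0126-Light, a difference of 0.31 (SE 0.14, unadjusted p 0.0284, adjusted p 1) with the highest light array in replicate 2. The groups did not overlap. The nuclear phosphatase gene Dusp4 was 5.86, 5.73 and 5.73 in U0126-Sham and 5.79, 6.05 and 5.97 in U0126-Light, which overlapped and differed by 0.16 (interval -0.12 to 0.45), whereas in vehicle Dusp4 rose by 0.74 (adjusted p 0.0234).

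Spry4 was 6.18, 6.23 and 5.99 in U0126-Sham and 6.10, 6.28 and 6.04 in U0126-Light. Its 2 groups covered the same range (0.00, interval -0.24 to 0.25), and it rose by 0.55 in vehicle (adjusted p 0.0842). Spry2 differed by 0.14 (SE 0.11) under U0126 and by 0.44 (adjusted p 0.19) in vehicle. The sham levels of these inhibitor genes themselves read lower with the drug: Dusp4 read 5.73 to 5.86 in U0126-Sham and 6.14 to 6.20 in DMSO-Sham, and Spry4 read 5.99 to 6.23 and 6.37 to 6.85. Dusp6 read 6.10 to 6.27 and 6.60 to 7.07 in the same groups, also without overlap. That contrast of sham groups was not tested here.

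The 27 genes called in vehicle were next read under U0126. Their vehicle differences came from other arrays, but the estimate of spread behind the calls was shared by all 36 arrays. The 22 that rose in vehicle had a median of 0.56 there and 0.12 under U0126. They were picked for a high vehicle value, so a lower median elsewhere is in part fixed in advance. Under U0126, 19 were positive and 3 negative, and the range was -0.12 to 0.56. In 5 of the 22 the 95% interval under U0126 lay above 0, that is an unadjusted p under 0.05, which 2.16% of all genes had in that direction. In 3, Per2, Midn and Gm2573, all light arrays lay above all sham arrays, as they did in 5.33% of all genes. Midn encodes midnolin, which delivers immediate early proteins to the proteasome. It was 6.80, 7.02 and 6.96 in U0126-Sham and 7.11, 7.05 and 7.14 in U0126-Light, a difference of 0.17 (SE 0.05, interval 0.06 to 0.28, unadjusted p 0.00314, adjusted p 0.936), against 0.48 in vehicle (adjusted p 3.28e-05). The difference of the Midn responses was -0.31 (adjusted p 0.445). Gm2573, a gene model with no known role, was higher by 0.26 (SE 0.08) under U0126 and by 0.39 in vehicle. The highest of the 22 under U0126, 0.56, was that of Tmem181a, chosen after its values were seen, and its groups overlapped. Its sham arrays of ZT 15 read 8.28 to 9.28 in vehicle and 9.35 to 9.84 under U0126. Those of ZT 4 and ZT 22 read 9.75 to 11.12, and the part of these sham levels in its difference was not tested.

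At the other end were genes whose groups overlapped under U0126. Rrad, a small GTPase that inhibits calcium channels, was 5.96, 6.30 and 6.12 in U0126-Sham and 6.46, 6.06 and 6.02 in U0126-Light, a difference of 0.05 (interval -0.30 to 0.41). In vehicle Rrad rose by 1.09 (adjusted p 0.00419), and the difference of its responses was -1.04 (interval -1.54 to -0.54, adjusted p 0.371). Dnajb5, a co-chaperone of the Hsp40 family, was 7.01, 7.01 and 6.89 in U0126-Sham and 7.12, 6.93 and 7.01 in U0126-Light, a difference of 0.05 (interval -0.07 to 0.17). It rose by 0.49 in vehicle (adjusted p 7.96e-05), and the difference of -0.44 (interval -0.60 to -0.27) had the smallest adjusted p of the vehicle-called genes, 0.263. Cited2, which binds the coactivators CBP and p300, and Klf5, a zinc finger factor, rose by 0.60 and 0.44 in vehicle and differed by -0.06 (SE 0.12) and -0.12 (SE 0.09) under U0126.

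The 5 genes that fell in vehicle, picked for a low vehicle value, had a median of -0.76 there and -0.17 under U0126, all 5 negative. Hfe, a regulator of iron uptake, was 4.75, 4.87 and 4.86 in U0126-Sham and 4.69, 4.57 and 4.62 in U0126-Light, without overlap (-0.20, SE 0.07, adjusted p 0.936). Prg4, the lubricant proteoglycan of connective tissue, was 5.83, 4.36 and 4.44 and then 4.18, 4.29 and 3.86, a difference of -0.76 (SE 0.49) that was -0.29 without U0126-Sham replicate 1. Prg4 is itself in the list of 14 meningeal markers given below, and its difference is the lowest there. Cited2, Klf5, Gm2573, Hfe and Prg4 were named after their values were seen.

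No gene passed the test of the difference between the responses (0%), and 1580 genes had an unadjusted p under 0.05 (5.24%). All 22 responses that rose in vehicle were smaller under U0126, and 18 of them had an unadjusted p under 0.05 for the difference (3.31% of all genes in that direction), but these genes were picked for a high vehicle response and the test uses the same vehicle arrays, so nothing is read from that count. The number of genes passing depended on single arrays. Without DMSO-Sham replicate 1 it was 230 (18 higher, 212 lower), of which 50 were 5S ribosomal RNA genes and 6 were vehicle-called genes. The number passing was 2 without DMSO-Light replicate 1, and 1 without U0126-Sham replicate 1. With array weights it was 4: Per2, Dnajb5, the small RNA gene Gm23096 and Pnpla2, a triglyceride lipase chosen after its values were seen, each with a lower value under U0126 than in vehicle.

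**Figure D2:**
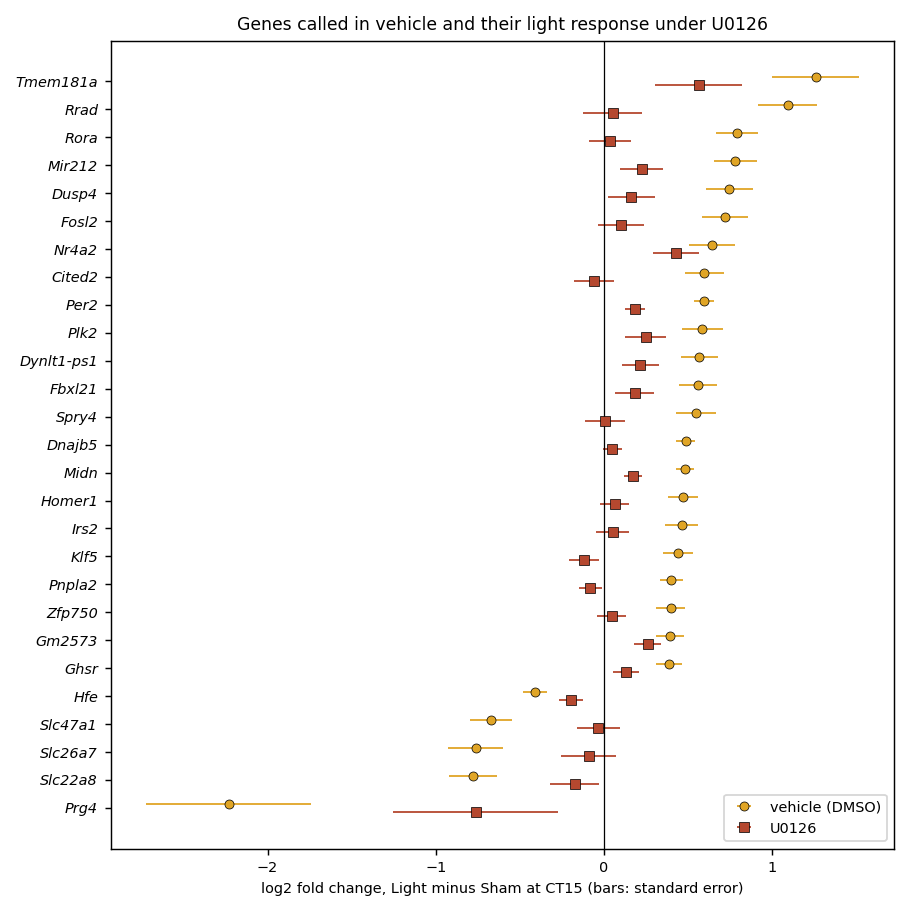
Log2 fold change (horizontal axis, light minus sham at ZT 15) of the 27 genes called in vehicle, in vehicle (circles) and under U0126 (squares); bars are the standard error from limma. The 22 that rose in vehicle, which were picked for a high vehicle value, have a median of 0.56 in vehicle and 0.12 under U0126.

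Among SCN peptide and identity genes 27 of 28 were measured, 21 with a positive difference, with a median of 0.04 (0.18 in vehicle), and none passed. Penk, the precursor of the enkephalins, was 8.10, 8.12 and 7.76 in U0126-Sham and 8.26, 8.30 and 8.25 in U0126-Light, higher in all light arrays by 0.27 (SE 0.09, unadjusted p 0.00388, adjusted p 0.936), against 0.16 in vehicle. Gad1, which makes GABA, was 9.81 to 9.92 in U0126-Sham and 9.92 to 10.07 in U0126-Light (0.12, SE 0.07). Sst, the somatostatin precursor, differed by 0.28 (SE 0.16). Avp, Vip and Nms, the last the peptide neuromedin S, differed by 0.38 (SE 0.26), 0.25 (SE 0.27) and 0.16 (SE 0.24), with overlapping groups, and were named after their values were seen. The genes of photic input and its kinases, 29 of 35 measured, had a median of 0.01 and a range of -0.22 to 0.11, and none had an unadjusted p under 0.05.

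Cytokine genes and several classes of small RNA read lower with light. The 28 cytokine, chemokine and interferon genes measured of 30 listed were all lower with light under U0126, with a median of -0.79 (0.18 in vehicle). The median was -1.22 without U0126-Sham replicate 1 and -0.42 without replicate 2, the ends of its range when 1 array was left out. Of the 28, 13 had an unadjusted p under 0.05, against 2.55% of all genes in that direction. The chemokine gene Ccl2 was 6.83, 8.47 and 7.41 in U0126-Sham and 6.42, 6.06 and 5.87 in U0126-Light, a difference of -1.46 (SE 0.49, adjusted p 0.936). Ccl12, another chemokine, was 3.71, 6.35 and 6.00 and then 3.56, 4.04 and 3.22 (-1.75, SE 0.62). Its levels in U0126-Sham replicate 1 and in the light arrays lay below the array medians and were not shown to be above background. Ccl4, also a chemokine, differed by -0.63 (SE 0.22). In each, U0126-Sham replicates 2 and 3 were the high arrays. The mean level of the list was 5.24 in U0126-Sham replicate 1, 6.89 and 6.28 in replicates 2 and 3, and 5.22 to 5.32 in the light arrays. Il1b, the interleukin 1 beta gene, chosen after its values were seen, was 5.19, 8.38 and 9.01 in U0126-Sham and 5.56, 5.89 and 5.18 in U0126-Light (-1.98, SE 0.86), so its replicate 1 lay within the range of the light arrays.

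Glucocorticoid and metabolic stress genes were lower in 25 of the 34 measured, with a median of -0.12 (0.05 in vehicle), and 7 read lower and 1 higher with an unadjusted p under 0.05, against 2.55% and 2.16% of all genes. Fkbp5, the co-chaperone of the glucocorticoid receptor, was 6.28, 6.23 and 6.25 in U0126-Sham and 6.08, 6.01 and 5.96 in U0126-Light, without overlap (-0.23, SE 0.07, unadjusted p 0.00412, adjusted p 0.936). Pfkfb3, which raises glycolysis, was 6.75, 7.06 and 6.89 and then 6.58, 6.68 and 6.61 (-0.28, SE 0.08). Ddit4, an inhibitor of mTORC1 that was chosen after its values were seen, differed by -0.28 (SE 0.11). The 3 sham arrays of Fkbp5 were close together, and the list's median stayed between -0.12 and -0.10 when any 1 array was left out. The mean level of the list, however, was 7.27, 7.39 and 7.38 in U0126-Sham and 7.17 to 7.23 in U0126-Light. Replicate 1 was thus the sham array nearest the light arrays, as for the cytokine genes. Of the 9 genes of this list with a positive difference, the 1 with an unadjusted p under 0.05 was Per1. Lcn2, an acute-phase protein gene in the same list that was chosen after its values were seen, was 5.48, 8.35 and 7.23 and then 5.29, 5.06 and 5.06, the pattern of the cytokines. Cirbp, the cold-inducible RNA-binding protein, was 7.76, 7.64 and 7.71 in U0126-Sham and 8.00, 7.99 and 7.80 in U0126-Light (0.23, SE 0.07, adjusted p 0.936), against -0.14 in vehicle.

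**Figure D3:**
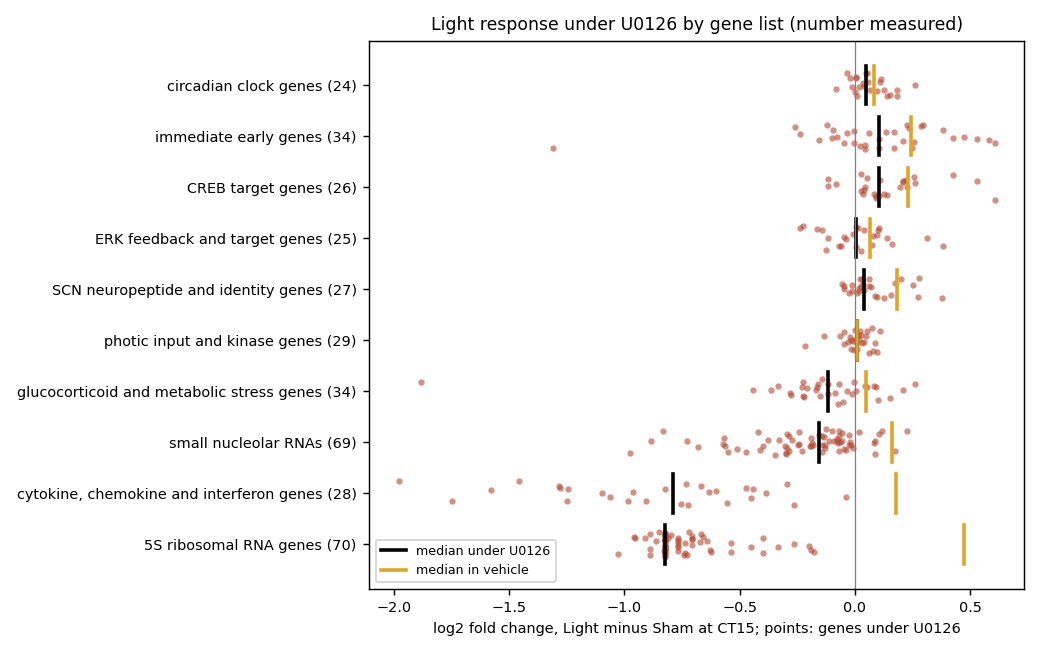
Log2 fold change (horizontal axis, light minus sham at ZT 15) of the measured members of 10 gene lists; points are genes under U0126, black lines their median and yellow lines the median in vehicle. The cytokine list has a median of -0.79 and the 5S ribosomal RNA genes one of -0.82, while the CREB targets have 0.11.

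All 70 genes of 5S ribosomal RNA, the small RNA of the large ribosomal subunit, were lower with light under U0126. Their median was -0.82 (0.47 in vehicle), no copy passed, and for 66 the unadjusted p was under 0.05 (2.55% of all genes in that direction). Leaving out 1 array gave medians of -0.98 to -0.54, the smallest in size without U0126-Light replicate 3. The copies are near-identical in sequence, so their probe sets can read each other and count as 1 measurement. The mean level of the list was 9.28, 9.82 and 9.38 in U0126-Sham and 8.98, 9.02 and 8.27 in U0126-Light, without overlap, and 8.66, 7.74 and 7.64 in DMSO-Sham and 8.87, 8.31 and 8.06 in DMSO-Light. The sham arrays with U0126 were thus the highest of the 12. The copy n-R5s151 differed by -1.03 (SE 0.28, adjusted p 0.936) and n-R5s25 by -0.72 (SE 0.17, adjusted p 0.706).

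Small nucleolar RNAs were lower in 61 of 69 (median -0.16, 0.16 in vehicle), but the median was 0.10 when the 5S level was a covariate. It was -0.28 to -0.07 when 1 array was left out, with -0.28 without U0126-Sham replicate 3, -0.25 without U0126-Light replicate 1, -0.07 without U0126-Sham replicate 2 and -0.09 without U0126-Light replicate 3. Snora31, which guides pseudouridylation, was 6.63, 7.07 and 6.93 in U0126-Sham and 5.98, 6.07 and 6.09 in U0126-Light (-0.83, SE 0.18, adjusted p 0.575). Snora69 was 5.04, 6.24 and 5.55 and then 4.92, 4.49 and 4.50 (-0.98, SE 0.22, adjusted p 0.575). Snord118, the U8 RNA of ribosomal RNA processing, differed by -0.41 (SE 0.12). The gene with the smallest p of all, Gm23096 on chromosome 3, was 3.80, 3.98 and 3.96 and then 3.48, 3.36 and 3.44 (-0.49, SE 0.10, adjusted p 0.575). It was chosen after its values were seen, and its levels lay below the median of every array, so it was not shown to be above background. The 5S level moved with these RNAs, and its part in their differences was not tested beyond the fit with it as a covariate.

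**Figure D4:**
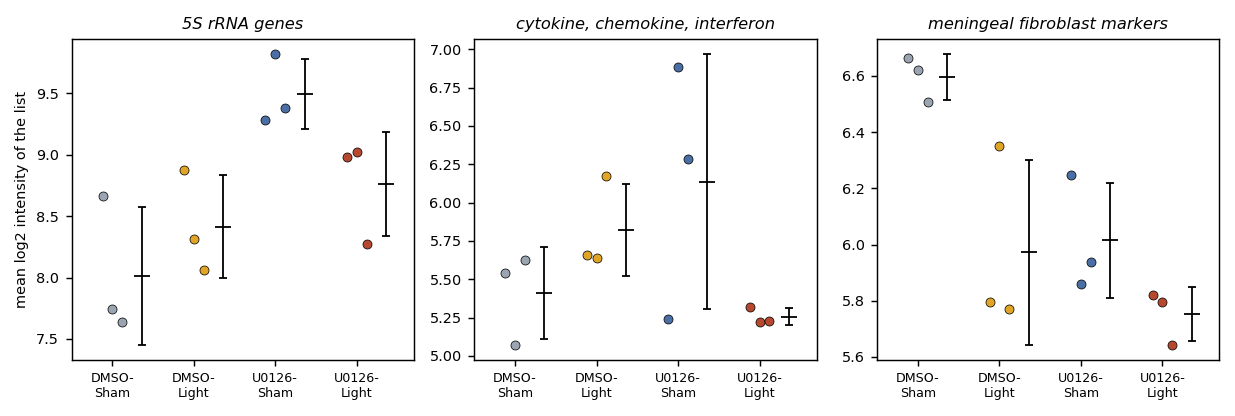
Mean log2 intensity of 3 gene lists in each of the 12 arrays of ZT 15 (CT15), by group; points are arrays, and the dash and bar are the mean ± SD of 3 arrays. The 5S genes lie at 9.28 to 9.82 in U0126-Sham, and the cytokine genes are high in 2 of its 3 arrays.

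Markers of several other cell types read lower with light. The 14 meningeal fibroblast markers were all lower with light (median -0.26, -0.52 in vehicle), with a mean level of 5.86 to 6.25 in U0126-Sham and 5.64 to 5.82 in U0126-Light, and the median was -0.11 without U0126-Sham replicate 1. The 9 mural markers were also all lower (median -0.07), as were 9 of 10 astrocyte markers (median -0.07) and 9 of 10 ependymal and tanycyte markers (median -0.17). The mean astrocyte level was 8.42 to 8.49 in U0126-Sham and 8.30 to 8.36 in U0126-Light, without overlap, and the mural level was 5.91 to 6.08 and 5.85 to 5.95, with overlap. The matrix proteoglycan genes Dcn and Lum differed by -0.53 (SE 0.22) and -0.30 (SE 0.12). None of the 10 astrocyte markers had an unadjusted p under 0.05. Of the 9 microglial markers measured, 7 were lower (median -0.24), and none had an unadjusted p under 0.05 either. Their mean level ranged from 6.51 to 6.81 in U0126-Sham and from 6.49 to 6.52 in U0126-Light. That of the 10 endothelial markers ranged from 6.30 to 6.43 and from 6.26 to 6.32. Of these 10, 3 were lower with an unadjusted p under 0.05, against 2.55% of all genes in that direction. Cdh5, the cadherin of endothelial junctions, was lower in all light arrays (-0.30, SE 0.10), and Vim, an intermediate filament gene of ependymal cells and tanycytes, by -0.69 (SE 0.26) with overlap. Neuronal markers had a median of 0.07. Oligodendrocyte markers had one of -0.02 (5 of 10 lower), their precursors -0.03 (3 of 5 lower) and choroid plexus markers 0.01 (3 of 8 lower). Of 19 markers of neighbouring brain regions measured, among them Pmch and Hpca, 11 were higher and 8 lower with light (median 0.06). Their mean level was 6.31 to 6.61 in U0126-Sham and 6.28 to 6.53 in U0126-Light, with overlap. Pmch, the melanin-concentrating hormone gene of the lateral hypothalamus, had the lowest difference of these 19. It was 9.48, 4.64 and 3.69 in U0126-Sham and 3.56 to 3.70 in U0126-Light, so this 1 marker was high in 1 sham array. Hpca, a neuronal calcium sensor, was higher in all light arrays by 0.18 (SE 0.09), against -0.28 in vehicle. Fewer cells of a type and less RNA per cell cannot be told apart in such samples, and the part of these markers in the results was not tested.

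Several genes outside the lists separated light from sham by more than any clock gene, and all were chosen after their values were seen. Ndn, the imprinted gene of necdin on chromosome 7, was 11.05, 11.08 and 11.17 in U0126-Sham and 11.86, 11.81 and 11.82 in U0126-Light. The difference was 0.73 (SE 0.18, interval 0.35 to 1.10, adjusted p 0.764), and 0.77 in vehicle. Restricted to the 12 arrays of ZT 15, it had an adjusted p of 0.0279 (0.0279 to 1 over the other settings). Over the 36 arrays, however, Ndn took either a low level of 11.04 to 11.23 in 10 arrays or a high one of 11.56 to 12.02 in 26. The 6 sham arrays of ZT 15 were all low, and the other 4 low arrays lay in light and sham groups of ZT 4 and ZT 22. At ZT 4 and ZT 22 the difference under U0126 was -0.11 and -0.39.

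A530053G22Rik, a gene model on chromosome 6, was 2.80, 2.65 and 2.48 in U0126-Sham and 3.59, 3.24 and 3.91 in U0126-Light (0.93, SE 0.20, adjusted p 0.575), against -0.05 in vehicle, at levels below the array medians and not shown to be above background. Gm9637, a gene model on chromosome 14, had the highest difference of all genes, 1.74 (SE 0.45, adjusted p 0.864). It read 3.82, 3.61 and 5.32 in U0126-Sham and 6.25, 6.07 and 5.67 in U0126-Light. In vehicle it read 3.62 to 3.88 in sham and 4.79 to 5.73 in light (1.68, adjusted p 0.306). Under U0126 at ZT 4 it read 3.16 to 3.61 in sham and 5.33 to 6.20 in light, again without overlap. At ZT 22 all 6 arrays with U0126 read 5.65 to 6.22.

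**Figure D5:**
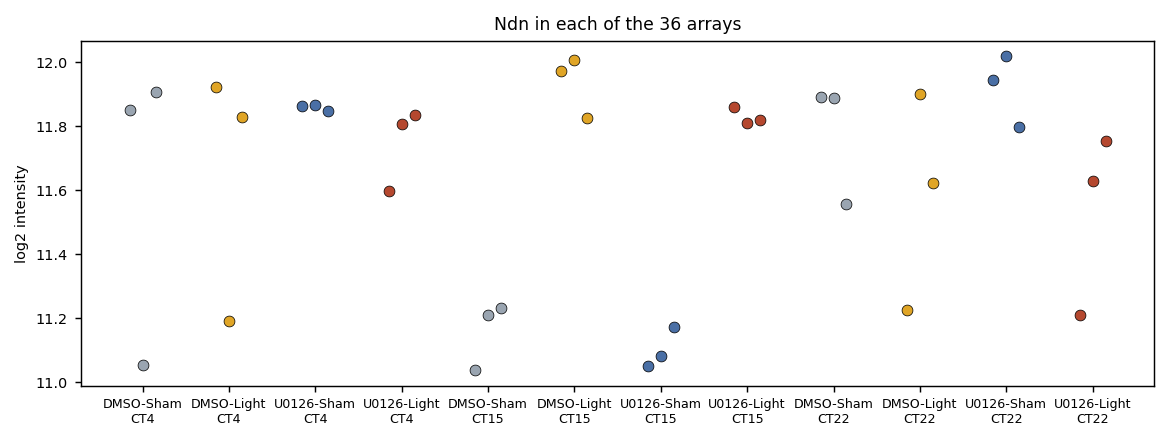
Log2 intensity of Ndn in each of the 36 arrays, by group and time (CT4, CT15 and CT22 in the labels, for ZT 4, ZT 15 and ZT 22); each point is 1 array. The 6 sham arrays of ZT 15 read 11.04 to 11.23, and 26 of the 36 arrays read 11.56 to 12.02.

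The response under U0126 at ZT 15 was last compared with those at midday (ZT 4) and late night (ZT 22), again with 3 arrays a side. No gene passed in either comparison (0% each), and 794 (2.63%) and 1115 (3.69%) genes had an unadjusted p under 0.05. Per1 differed with light by -0.03 at ZT 4 and -0.01 at ZT 22, against 0.26 at ZT 15 (unadjusted p 0.026 and 0.035 for the differences, adjusted p 1 and 0.999). Per2 differed by 0.05 and -0.06 at these times, Midn by 0.03 and 0.04, and Nr4a2 by 0.25 and -0.01. Penk, Vgf and Sik1 lay between -0.15 and 0.01 at both other times, but they were named for a small p at ZT 15. Smaller values elsewhere are in part fixed by that choice, so no limit to ZT 15 is read from them. The Per1 tests reuse the ZT 15 arrays in which its difference was first read. The 26 CREB targets had a median of 0.01 at ZT 4 and -0.02 at ZT 22, against 0.11 at ZT 15. The 5S genes had a median of -0.22 and 0.05, and the cytokine genes -0.23 and 0.18, against -0.82 and -0.79 at ZT 15. Other lists differed less between ZT 15 and ZT 4: the small nucleolar RNAs had a median of -0.16 at ZT 15 and -0.23 at ZT 4, the glucocorticoid genes -0.12 and -0.10, and the meningeal markers -0.26 and -0.22. No list was tested between the times. The 2 comparisons share the U0126 arrays of ZT 15.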

How the data were processed

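The authors extracted RNA from SCN tissue of 2 pooled mice a sample, hybridised it to Affymetrix Mouse Transcriptome Assay arrays and read the arrays in R with the oligo package before the log2 intensities were deposited. The summarisation and normalization calls are not given in the sources used here, and the array medians show values already brought to a common level. The deposited values hold 72688 probe sets on 36 arrays, 6732 of them controls, which were left out, and they were taken without further normalization. Gene symbols came from the platform annotation, where 2176 tested probe sets carry several symbols and 33142 none, and names and positions from RefSeq (30174 of 30176 genes matched). The paper gives zeitgeber times and a shorter interval to dissection than the sample labels, which give circadian times.

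With limma 3.58.1 in R 4.3.3, 12 group means were fitted to all 36 arrays, which share 1 estimate of spread (24 residual degrees of freedom), and the comparisons were tested with eBayes. P-values were adjusted over the 65956 probe sets in each comparison. With 3 arrays a side, the two-sided exact permutation test has a smallest possible p of 0.1, so it was not used.

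The members, gene lists and tests were chosen with earlier results of these data known. The lists hold genes that the study had picked from these samples and are not independent of them. The genes named by rule are Per1, Per2, Fos, Egr1, Dusp4, Dusp6, Spry2, Spry4, Mir212, Nr4a2, Rora, Rrad and Midn, up to 3 members of each list with the smallest p, the 6 genes with the smallest p in vehicle, and up to 14 in each direction among those passing without overlap, of which there were none. Genes outside this rule are said to be chosen after their values were seen.

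Residuals of same-numbered arrays were correlated to check for pairing. U0126-Sham and U0126-Light gave 0.04, -0.01 and -0.08, so their numbers do not pair. U0126-Light and DMSO-Light gave 0.33, 0.18 and 0.41, by the values alone, since no label says what a number shares. All arrays differed in their values (0 identical pairs; highest correlation 0.996). Results were recomputed with the replicate block, only the arrays of the times compared, the brighter probe sets alone, cyclic loess, robust eBayes with a trend, weights for arrays, no threshold on the fold, a threshold of 0.05 on the adjusted p, adjustment over genes with 1 symbol, covariates for 5S RNA and for Xist and Y-linked genes, and leaving out each array. Using U0126-Sham replicate 1 as the only control array was added after seeing the data.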

Additional observations from a re-analysis of the deposited data

How the results depend on the processing

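The precision is that of 3 arrays a side, and no depth is defined for arrays. The number of genes passing in U0126-Light against U0126-Sham was 0, and 1 with only the arrays of ZT 15 (Ndn) or with U0126-Sham replicate 1 as the only control (Sfrp5, chosen after its values were seen). It was 0 to 2 when 1 array was left out. In vehicle it was 27, against 7 with only the arrays of ZT 15, 45 with array weights, 17 with Xist and Y-linked covariates and 8 to 29 when 1 array was left out, being 11, 12 and 17 when DMSO-Sham replicate 1, 2 or 3 was dropped and 8 when DMSO-Light replicate 3 was. For the difference of the responses it was 0, against 4 with array weights and 0 to 230 when 1 array was left out. The 2 comparisons between times gave 0 under every setting tried. With the replicate block the counts were 0 under U0126, 22 in place of 27 in vehicle and 0 for the 3 differences, so no count moved by more than 1.5 times and no gene passed under U0126. The causes of these changes were not tested.

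The direction turned for these genes and lists. Spry4 was -0.00058 with cyclic loess, -0.030 with the 5S covariate and -0.043 with U0126-Sham replicate 1 as the only control. Rora was -0.081 and -0.14, and Nms -0.039 and -0.19, under the last 2 of these settings. With that single control, Vim was 0.028, Cited2 0.11, Vip -0.31 and Il1b 0.36, and the cytokine median moved to -0.02. That array was picked because its cytokine genes read low, so the values of Il1b and of the list follow from the choice. With the 5S covariate the 5S median was 0.042, which follows from the covariate itself, and the small nucleolar RNA median was 0.10. Leaving out 1 array gave -0.067 to 0.055 for Spry4, -0.072 to 0.14 for Rora, -0.091 to 0.14 for Rrad, -0.036 to 0.24 for Fosl2, -0.032 to 0.53 for Vip, -0.15 to 0.036 for Cited2 and -0.057 to 0.33 for Nms. Of 680 values for 57 named genes under the other settings, 668 kept their direction and side of the threshold. Many of them could not turn. The replicate block, only the arrays of the times compared, the brighter probe sets and robust eBayes with a trend left the fold changes as they were. So did the changed thresholds and adjustment. The 11 values that turned came from cyclic loess, the 5S covariate or the single control. The count of 668 is therefore not read as a measure of robustness.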
